A study of Homo sapiens with 12 samples.

Results

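S100A2, S100A4, S100A6, S100A8, S100A9, S100A10, S100A11, S100A14, S100A16 and S100P, 10 genes of the S100 family of calcium-binding proteins, were followed in 4 human pancreatic cancer cell lines. They were found by gene name among the 58302 genes of the deposited table, and each name matched 1 row. They were chosen by the FPKM values of these same libraries, their levels and their differences between lines being known, and no threshold was set. Their values are therefore given as a description, with fold changes and standard errors but no p-values. Adjusted p-values are given only for genes outside this group. The lists of these genes were also chosen with earlier results of these data known, and some genes were named after their values were seen. Their p-values do not allow for that choice.

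BxPC-3 and CFPAC-1, both derived from human pancreatic ductal adenocarcinoma, were the GEM-sensitive parental lines. CFPAC-1-GR and BxPC-3-GR were the GEM-resistant cells obtained from them, raised by prolonged culture in rising amounts of gemcitabine (GEM), a nucleoside analogue used against this cancer. RNA of 12 libraries, 3 for each line, was sequenced, and each resistant line is 1 derivative of 1 parental line. The labels carry no other agent or engineered allele, do not say whether the 3 replicates of a line were separate cultures, and p-values therefore measure only the spread between these libraries. The labels call the morphology of BxPC-3-GR mesenchymal and that of the other lines epithelial. In BxPC-3-GR, however, VIM, the gene of the mesenchymal filament vimentin, was lower than in BxPC-3 (means of 0.813 and 6.59 FPKM, log2FC -2.06). VIM passed the filter of a mean of 1 FPKM through BxPC-3, so no p is given for it. CDH2 (N-cadherin) was higher in BxPC-3-GR (log2FC 1.10, adjusted p = 6.8e-04, limma, and 0.99 without BxPC-3 replicate 1 or BxPC-3-GR replicate 3). FN1 (fibronectin) was higher below the fold criterion of 1 (log2FC 0.68, adjusted p = 1.1e-04, limma). Of 6 epithelial markers 0 passed the criteria in either direction, beside 7.76% of all genes tested. KRT7, KRT8 and EPCAM were higher below the fold criterion (log2FC 0.31, 0.46 and 0.28, adjusted p = 0.023, 0.0083 and 0.0073, limma). KRT18, KRT19 and CDH1 had adjusted p of 0.38 or more.

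S100 proteins are small and mostly dimeric, and bind calcium through EF-hand loops. Calcium opens a surface on which they dock to target proteins such as annexins, non-muscle myosin and scaffold proteins, and some members are also released from cells and act on receptors such as RAGE and TLR4. Most of the genes lie in a cluster on the long arm of chromosome 1, beside genes of the cornified envelope of squamous epithelium, while S100P lies alone on chromosome 4. Several members, S100P, S100A4, S100A6 and S100A2 among them, are long known for raised levels in pancreatic ductal adenocarcinoma.

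The promoters of 5 members are shown here because the results turn on these genes. S100A9, S100A4 and S100P had log2FC values of opposite sign in the pairs of lines, as did S100A6, which is not shown. For S100A4 the value in the CFPAC-1 pair was -0.77, short of the fold criterion, and 0.01 after a correction described below. S100A8 encodes the usual partner of S100A9, and S100A2 separated the lines of BxPC-3 origin from those of CFPAC-1 origin. Each run is the 250 bases before a RefSeq start on GRCh38.p14, 5′ to 3′ on the strand of the gene. Capitals mark TATAAA, the core of a TATA box, or, in S100A2, a match to TGANTCA, the letters bound by AP-1.
S100A9: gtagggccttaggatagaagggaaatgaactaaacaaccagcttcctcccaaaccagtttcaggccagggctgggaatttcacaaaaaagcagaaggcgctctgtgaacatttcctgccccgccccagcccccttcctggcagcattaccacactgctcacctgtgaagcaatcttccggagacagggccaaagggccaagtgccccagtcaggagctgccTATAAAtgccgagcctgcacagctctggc
S100A8: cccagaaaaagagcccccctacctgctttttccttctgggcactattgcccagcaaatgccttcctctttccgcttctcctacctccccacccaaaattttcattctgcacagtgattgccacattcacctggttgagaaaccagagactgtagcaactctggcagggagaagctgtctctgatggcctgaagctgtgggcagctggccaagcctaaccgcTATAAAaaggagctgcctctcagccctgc
S100A4: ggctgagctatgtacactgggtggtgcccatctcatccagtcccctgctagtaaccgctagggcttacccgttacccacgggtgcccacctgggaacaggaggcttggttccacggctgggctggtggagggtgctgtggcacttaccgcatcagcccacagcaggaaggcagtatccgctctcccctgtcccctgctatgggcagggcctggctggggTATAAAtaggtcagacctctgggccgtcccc
S100P: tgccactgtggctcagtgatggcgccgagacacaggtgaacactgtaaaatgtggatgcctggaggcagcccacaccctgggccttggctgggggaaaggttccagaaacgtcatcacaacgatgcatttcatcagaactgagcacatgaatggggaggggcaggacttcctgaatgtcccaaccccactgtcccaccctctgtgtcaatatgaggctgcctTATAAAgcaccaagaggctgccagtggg
S100A2: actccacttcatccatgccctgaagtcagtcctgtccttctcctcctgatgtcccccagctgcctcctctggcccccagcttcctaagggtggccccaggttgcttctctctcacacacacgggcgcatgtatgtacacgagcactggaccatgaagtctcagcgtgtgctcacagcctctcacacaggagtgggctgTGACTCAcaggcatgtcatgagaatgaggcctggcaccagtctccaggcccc
The windows are chr1:153357604-153357853 (plus strand) for S100A9, chr1:153391074-153391323 (minus strand) for S100A8, chr1:153545807-153546056 (minus strand) for S100A4, chr4:6693628-6693877 (plus strand) for S100P and chr1:153565845-153566094 (minus strand) for S100A2. All 10 genes matched the RefSeq table. TATAAA, searched on both strands, began 29 bases before the start in S100A9 and S100A8, 31 bases before it in S100A4 and 28 bases before it in S100P, and S100A8 is shown at the 1 of its 3 listed starts that has it. Among the 10 members 4 held TATAAA in a window, and so did 3563 of the 27305 genes listed by RefSeq. TGANTCA, which reads the same on both strands, was found in S100A2 alone of the 10, beginning 52 bases before the start, with a share of 8.1% over all genes. ACGTG, the core letters bound by hypoxia-inducible factors, was found in S100A16 alone, with a share of 21.7% over all genes. These matches describe letters and are not shown to be sites.

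Levels are given as FPKM, fragments per kilobase of transcript, scaled to the mapped fragments of the library, which allows genes of different length to be compared within a library. Changes are log2 fold changes (log2FC) on log2(FPKM + 1), a scale that understates the change of low genes. A gene was called significantly differentially expressed (SDE) when its adjusted p was below 0.05 and its absolute log2FC above 1, the criteria used in the study. The low values of the libraries implied about 12700000 to 25100000 fragments per library. Spearman correlations between libraries of a line lay between 0.966 and 0.981. A feature of parental CFPAC-1 touches every comparison with that line: in CFPAC-1-GR against CFPAC-1, log2FC fell with the GC content of the transcript over 12030 genes (Spearman rho = -0.777, across genes, which are not independent replicates), whereas in BxPC-3-GR against BxPC-3 it did not (rho = 0.039, 11685 genes). The rho was -0.628 between the parental lines and 0.019 between the resistant lines. In genes with a GC content of 54% to 56% the median log2FC in CFPAC-1-GR was -0.44, and in genes of 38% to 40% it was 1.20. The members have a GC content of 52.8% to 60.2%, above the median of 49.2% over the genes tested, and short transcripts, with joined exons of 577 to 1701 bases against a median of about 4248. Values after a correction for GC content and length are therefore given beside the fold changes in the CFPAC-1 pair, and whether this trend arose in the cells or in the libraries was not tested.

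**Figure D1:**
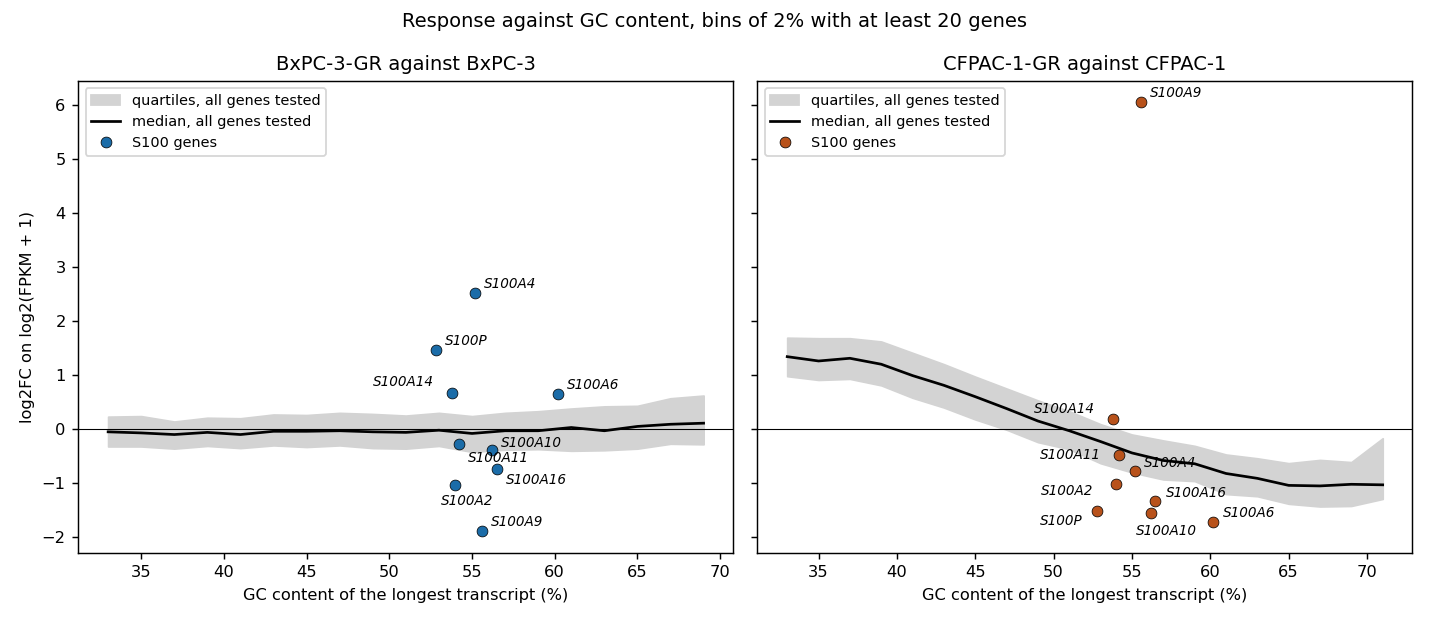
log2FC of resistant against parental cells (y axis) against GC content of the longest transcript in percent (x axis), for the BxPC-3 lines (left) and the CFPAC-1 lines (right). The black line and grey band are the median and quartiles of all genes tested in bins of 2%, and the points are 9 S100 genes: the band is flat on the left and falls from 1.34 to about -1 on the right, where S100A9 stands far above it at 6.04 and S100P, S100A10, S100A6, S100A16 and S100A2 lie below it.

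S100A9 showed the largest change of any member in these data, and it went opposite ways in the pairs. S100A9 encodes the larger subunit of calprotectin, a zinc- and calcium-binding complex best known from neutrophils and inflamed epithelium. Its FPKM was 148, 162 and 154 in the 3 BxPC-3 libraries and 42.4, 38.8 and 42.2 in the BxPC-3-GR libraries. In CFPAC-1 it was 3.84, 2.61 and 2.97, and in CFPAC-1-GR it was 258, 298 and 253. The groups did not overlap in either pair: the resistant libraries were all lower in the BxPC-3 pair and all higher in the CFPAC-1 pair. The log2FC was -1.89 (SE 0.0618) in BxPC-3-GR, a 3.76-fold lower mean, and 6.04 (SE 0.126) in CFPAC-1-GR, an 85.8-fold higher mean. After the GC content and length correction the values were -1.82 and 6.82. S100A9 thus ranked between 98 and 107 among all genes by FPKM in the CFPAC-1-GR libraries, and between 5987 and 7349 in the CFPAC-1 libraries.

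S100A8, which encodes the other calprotectin subunit, did not accompany it at a comparable level. S100A8 was at 0.296, 0.562 and 0.172 FPKM in BxPC-3, at 0.0876, 0 and 0.118 in BxPC-3-GR, at 0 in all 3 CFPAC-1 libraries and at 0.169, 0.644 and 0.615 in CFPAC-1-GR. These values correspond to 0 to 11.1 implied fragments per library, and the gene stayed below the minimum mean of 1 FPKM in every comparison. The mean of S100A9 was 566-fold that of S100A8 in CFPAC-1-GR and 450-fold in BxPC-3, with the error of S100A8 set by these few fragments. The order of the 4 lines was the same for both genes, CFPAC-1-GR, BxPC-3, BxPC-3-GR and CFPAC-1, but for S100A8 the first and second lines overlapped, as did the other two. Of 8 neutrophil and monocyte markers, PTPRC, FCGR3B and TYROBP were listed at 0 in all 12 libraries. The 8 markers together summed to 9.36 to 11.6 FPKM in CFPAC-1 and to 4.49 to 6.19 FPKM in CFPAC-1-GR, nearly all of it LYZ and CD14. LYZ was lower in CFPAC-1-GR (mean 7.02 FPKM in CFPAC-1 and 1.34 in CFPAC-1-GR, log2FC -1.81, adjusted p = 2.0e-04, limma, and -2.40 with the correction). CD14 had means of 3.33 and 3.92 FPKM (log2FC 0.16, adjusted p = 0.39, limma) and was called higher with the correction (1.10, adjusted p = 9.2e-04). The part of these markers in the S100A9 values was not tested.

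**Figure D2:**
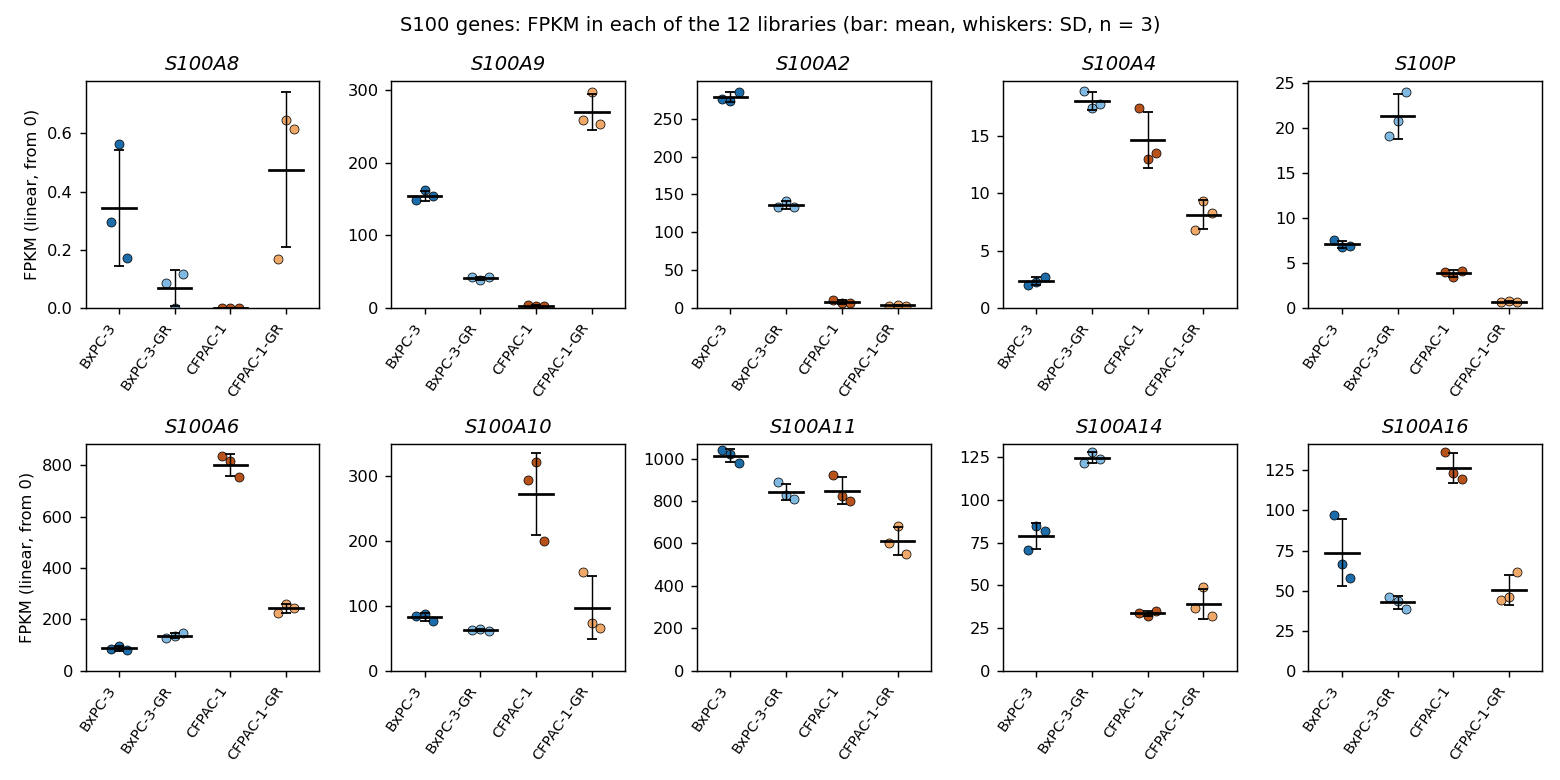
FPKM of each S100 gene (y axes, linear from 0, with a scale of their own for each gene) in the 3 libraries of each line (points), with the mean (bar) and SD (whiskers, n = 3). S100A9 is high in BxPC-3 and CFPAC-1-GR, S100A2 is high in both BxPC-3 lines, S100A4 and S100P are highest in BxPC-3-GR, S100A6 is highest in CFPAC-1, and the axis of S100A8 ends below 1 FPKM.

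S100A4 and S100P were higher in BxPC-3-GR, and lower in CFPAC-1-GR, than in the parental line. S100A4, also called metastasin, binds non-muscle myosin IIA and is associated with cell motility. Its FPKM was 2.04, 2.29 and 2.72 in BxPC-3 and 18.9, 17.4 and 17.8 in BxPC-3-GR, a log2FC of 2.51 (SE 0.0850) and a 7.69-fold higher mean. In CFPAC-1 it was 17.5, 12.97 and 13.5, and in CFPAC-1-GR it was 6.81, 9.35 and 8.31. Here too the groups did not overlap, in the opposite direction, and the log2FC of -0.77 (SE 0.146) did not reach the fold criterion. With the GC content and length correction this value was 0.01, so only the increase in the BxPC-3 pair was there with and without it. BxPC-3-GR and CFPAC-1 overlapped in S100A4, while BxPC-3 was the lowest line.

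S100P, which binds ezrin and IQGAP1 inside cells and RAGE outside, had FPKM values of 7.56, 6.76 and 6.91 in BxPC-3 and 19.1, 20.8 and 24.1 in BxPC-3-GR. The log2FC was 1.46 (SE 0.0932), a 3.01-fold higher mean. In CFPAC-1 it was 4.01, 3.44 and 4.16, and in CFPAC-1-GR 0.633, 0.771 and 0.728. This gave a log2FC of -1.51 (SE 0.0818) and a 5.45-fold lower mean, and the 4 lines did not overlap anywhere in their order. With the correction the value in CFPAC-1-GR was -0.93, below the fold criterion. At a mean of 0.7105 FPKM in CFPAC-1-GR, S100P passed the filter of a mean of 1 FPKM in this pair through CFPAC-1 alone, which fixed its direction. The level in BxPC-3-GR was 30.0-fold that in CFPAC-1-GR, against 1.83-fold between the parental lines.

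S100A2 separated the 2 lines of origin. It encodes a mostly nuclear S100 protein of basal and squamous epithelium, with TP63 among its known activators. FPKM was 276, 273 and 285 in BxPC-3 and 133, 142 and 133 in BxPC-3-GR. The CFPAC-1 libraries had 10.7, 7.24 and 6.83, and the CFPAC-1-GR libraries 3.10, 4.64 and 2.99. The lines of BxPC-3 origin lay far above the others, without overlap. The mean was 33.7-fold higher in BxPC-3 than in CFPAC-1 and 38.0-fold higher in BxPC-3-GR than in CFPAC-1-GR. Within the pairs it was lower in the resistant line in both, with a log2FC of -1.03 (SE 0.0516) in BxPC-3-GR and of -1.01 (SE 0.196) in CFPAC-1-GR, both close to the fold criterion. With the correction these were -0.97 and -0.35, and neither was called. With median-of-ratios scaling the value in BxPC-3-GR was -0.98 and was not called either. The value in CFPAC-1-GR also missed the criterion without CFPAC-1 replicate 1 (-0.83), without CFPAC-1-GR replicate 1 (-0.94) and without CFPAC-1-GR replicate 3 (-0.92).

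Markers of squamous epithelium were lower in BxPC-3-GR beside S100A2 and S100A9. The 6 markers summed to 1087 to 1209 FPKM in BxPC-3, 174 to 185 FPKM in BxPC-3-GR, 6.07 to 10.4 FPKM in CFPAC-1 and 4.82 to 5.88 FPKM in CFPAC-1-GR. KRT5, a basal keratin, fell in BxPC-3-GR (log2FC -2.79, adjusted p = 2.7e-06, limma), as did KRT6A (log2FC -2.04, adjusted p = 1.0e-05) and SPRR1B (log2FC -5.18, adjusted p = 2.0e-06). TP63 itself had a mean of 14.9 FPKM in BxPC-3 and 13.3 in BxPC-3-GR (log2FC -0.15, adjusted p = 0.20) and was at most 0.164 FPKM in every CFPAC-1 and CFPAC-1-GR library. The part of this marker group in the S100 values was not tested.

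S100A10, S100A11 and S100A6 are the members known as annexin partners. S100A10, or p11, forms a tetramer with annexin A2 at the plasma membrane. Its FPKM was 84.8, 87.8 and 76.8 in BxPC-3 and 63.5, 63.8 and 61.9 in BxPC-3-GR (log2FC -0.39, SE 0.0637). In CFPAC-1 it was 294, 322 and 201, and in CFPAC-1-GR 153, 74.4 and 65.8, so replicate 1 of CFPAC-1-GR stood apart from the other two and the SE was the widest of the members (log2FC -1.55, SE 0.336). Without that library the log2FC was -1.92, and with the correction, on all libraries, it was -0.71.

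S100A11, a partner of annexin A1, was the most abundant member and, of the 9 that passed the filter on low values, the most even. It ran from 551 FPKM in the lowest CFPAC-1-GR library to 1041 in the highest BxPC-3 library and ranked 24 to 46 among all genes. The log2FC was -0.27 (SE 0.0567) for BxPC-3-GR and -0.48 (SE 0.102) for CFPAC-1-GR, and the latter turned to 0.20 with the correction. Its range over the 4 lines, 0.73 in log2 units between the highest and the lowest mean, was larger than that of 20.4% of 12210 genes.

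S100A6, or calcyclin, binds annexin A11 and the calcyclin-binding protein. Its FPKM was 83.7, 96.8 and 81.2 in BxPC-3 and 128, 137 and 147 in BxPC-3-GR, with no overlap and a log2FC of 0.65 (SE 0.0883). It was 836, 817 and 754 in CFPAC-1 and 226, 262 and 243 in CFPAC-1-GR. The log2FC in CFPAC-1-GR was -1.72 (SE 0.0827), a 3.30-fold lower mean, and -0.61 with the correction. Parental CFPAC-1 thus held 9.20-fold the level of BxPC-3, whereas the resistant lines differed 1.77-fold. As log2FC the parental difference was -3.19, and -2.05 with the correction. S100A6 has the highest GC content of the members, 60.2%. In genes of 60% to 62% the median log2FC in CFPAC-1-GR was -0.82, with quartiles of -1.20 and -0.47. The part of GC content in the S100A6 values was not tested.

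S100A14 and S100A16 are epithelial members, known from the cytoplasm and cell junctions. S100A14 was 70.6, 84.5 and 81.5 FPKM in BxPC-3 and 122, 128 and 124 in BxPC-3-GR (log2FC 0.66, SE 0.0783). CFPAC-1 (33.8, 32.3 and 34.9) and CFPAC-1-GR (36.7, 49.1 and 31.8) overlapped (log2FC 0.19, SE 0.152, and 0.85 with the correction). S100A16 was 97.1, 66.4 and 57.8 FPKM in BxPC-3 and 46.2, 43.8 and 38.3 in BxPC-3-GR (log2FC -0.74, SE 0.194). In CFPAC-1 S100A16 was 137, 123.4 and 119, and in CFPAC-1-GR 44.2, 46.3 and 61.4 (log2FC -1.32, SE 0.135, and -0.46 with the correction). CFPAC-1-GR overlapped with both BxPC-3 lines in S100A16.

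Counted together, 9 of the 10 members passed the filter on low values in each comparison, S100A8 being the exception. In BxPC-3-GR 4 of 9 were called, S100A4 and S100P higher and S100A9 and S100A2 lower. Of all 11710 genes tested in this pair 7.76% were called. In CFPAC-1-GR 6 of 9 were called, S100A9 higher and S100A6, S100A10, S100P, S100A16 and S100A2 lower. Of all 12051 genes tested there 32.2% were called, 11.7% lower. Nothing is read from these counts, since the same contrasts guided the choice of the genes. S100P, moreover, passed the filter in the CFPAC-1 pair through CFPAC-1 alone, which fixed its direction. With the GC content and length correction the counts were 3 of 9 and 1 of 9, beside backgrounds of 7.69% and 9.43%, and the 5 lower calls in CFPAC-1-GR were lost. The groups did not overlap for 9 of 9 members in the BxPC-3 pair (66.1% of all genes) and for 8 of 9 in the CFPAC-1 pair (82.1% of all genes). The median log2FC over the 9 members was -0.27 for BxPC-3-GR and -1.01 for CFPAC-1-GR, against -0.05 and 0.13 over all genes tested. With the correction it was -0.19 and -0.35, against -0.05 and 0.14.

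**Figure D3:**
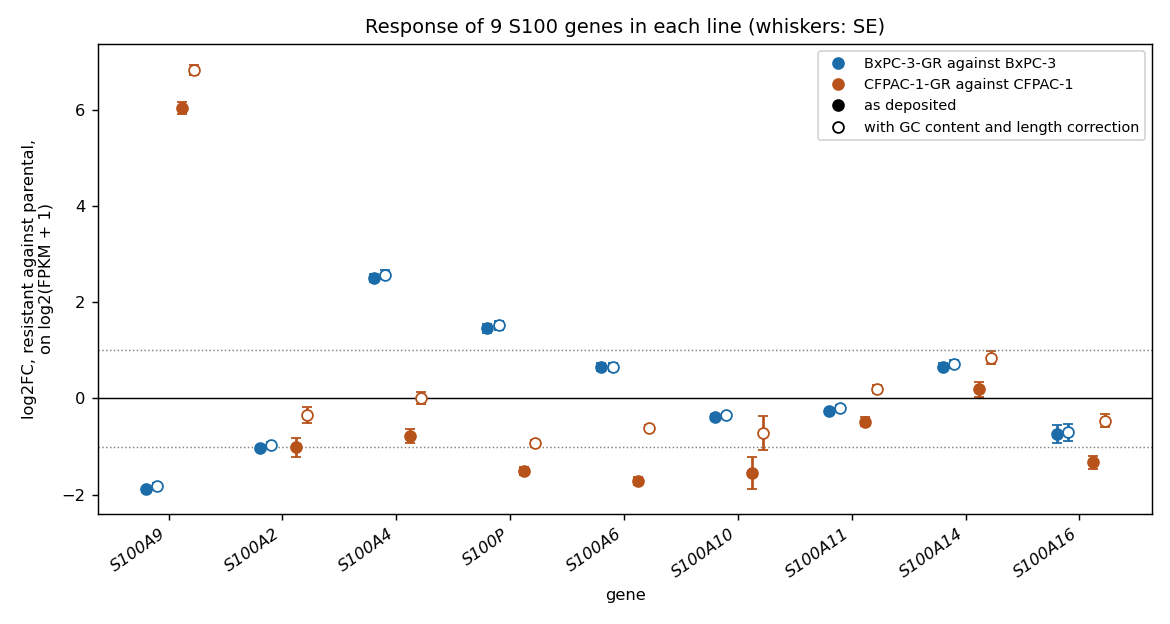
log2FC of resistant against parental cells on log2(FPKM + 1) (y axis) for the 9 tested S100 genes (x axis) in the BxPC-3 lines (blue) and the CFPAC-1 lines (orange), as deposited (filled) and with the GC content and length correction (open), with SE as whiskers and dotted lines at -1 and 1. S100A9, S100A4, S100P and S100A6 lie on opposite sides of 0 in the pairs as deposited, the open orange points lie above the filled ones for every gene, and the blue points hardly move. The open orange point of S100A4 lies at 0.01.

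The responses of the pairs were set against each other as CFPAC-1-GR against CFPAC-1 minus BxPC-3-GR against BxPC-3. The difference was 7.92 (SE 0.147) for S100A9, -3.28 (SE 0.180) for S100A4, -2.97 (SE 0.125) for S100P, -2.37 (SE 0.122) for S100A6 and -1.15 (SE 0.381) for S100A10. These 5 of 9 members were called, beside 38.0% of 12210 genes. With the correction, where 19.6% of genes were called, the values were 8.66, -2.52, -2.43, -1.23 and -0.32, so S100A10 lost its call, as it did without CFPAC-1-GR replicate 3 (-0.92). Without the correction S100A2 had the smallest difference, 0.02 (SE 0.221), and S100A11, S100A14 and S100A16 lay between -0.58 and -0.21. With it S100A2 came to 0.66 (SE 0.190), and S100A11, S100A14 and S100A16 to 0.43, 0.17 and 0.28. As log2FC values, 4 of the 9 members had opposite signs in the pairs: S100A9, S100A4, S100P and S100A6. With the correction S100A4 left this set (2.57 and 0.01) and S100A11 entered it (-0.19 and 0.20). Over all genes tested, log2FC was above 0 for 5400 of 11710 in the BxPC-3 pair and for 6573 of 12051 in the CFPAC-1 pair. The share of all genes with opposite signs was not computed, so nothing is read from the count of 4.

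Between the parental lines 6 of 9 members were called, beside 44.5% of 11842 genes. S100A9 (49.3-fold), S100A2 and S100A14 (2.35-fold) were higher in BxPC-3, and S100A6, S100A4 (6.24-fold) and S100A10 (3.27-fold) were higher in CFPAC-1. Between the resistant lines 5 of 9 were called, beside 17.1% of 12330 genes. There S100A2, S100P, S100A14 (3.18-fold) and S100A4 (2.21-fold) were higher in BxPC-3-GR, and S100A9 (6.55-fold) was higher in CFPAC-1-GR. S100P passed the filter between the resistant lines through BxPC-3-GR alone, which fixed its direction. Without CFPAC-1-GR replicate 1 S100A4 missed the criterion here (log2FC 0.96 against 1.07). With the correction, where 27.0% of genes were called, S100A11 and S100P (1.40) were also called higher in BxPC-3 than in CFPAC-1, and S100A10 (-0.75) was not called. The log2FC between the parental lines went from 1.20 to 1.95 for S100A14 and from -2.22 to -1.36 for S100A4. With upper-quartile scaling S100A14 (0.91) lost its call there and S100A16 gained one. S100A9 and S100A4 thus stood in opposite orders in the parental and the resistant lines. Over the 4 lines, the range of the means was 6.03 in log2 units for S100A9 and 5.93 for S100A2, each larger than that of 99.8% of 12210 genes, and 3.70 for S100P (98.3%), beside a median range of 1.22 over all genes.

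Another 10 genes of the family were measured. S100A13 was expressed in all libraries, at 10.3 to 24.99 FPKM, and S100A3 at 0.699 to 3.92 FPKM. Neither was called in either pair (S100A13 log2FC 0.11, adjusted p = 0.32, and -0.65, adjusted p = 0.017, or 0.05 with the correction; S100A3 log2FC -0.19, adjusted p = 0.030, and -0.71, adjusted p = 0.026, or 0.31 with the correction; limma, BxPC-3-GR and CFPAC-1-GR in turn). S100A1, S100A5, S100A7, S100A7A and S100A12 stayed below 1 FPKM in every library, and S100B, S100G and S100Z were listed at 0 in all 12. S100A12, a further ligand of RAGE from the granulocyte group, had 0.226 to 0.444 FPKM in BxPC-3, was listed at 0 in BxPC-3-GR and CFPAC-1, and reached 0.338 FPKM in CFPAC-1-GR. S100A3 overlaps the span of S100A4 on the same strand but shares 0 exon bases with it. An antisense gene, BX470102.1, shares 23 exon bases with S100A6 and reached at most 0.597 FPKM, and AL450992.1 lies antisense to S100A11 with 0 shared exon bases.

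Of 8 receptors for extracellular S100 proteins, AGER, which encodes RAGE, was at most 0.0921 FPKM in every library. TLR4, a receptor for calprotectin, fell in BxPC-3-GR from 4.01, 3.94 and 3.77 to 0.740, 0.894 and 0.709 FPKM (log2FC -1.46, SE 0.0589). In CFPAC-1 TLR4 was at 0.0390, 0.0668 and 0.0789 FPKM, and in CFPAC-1-GR at 0.610, 0.389 and 0.320, below the filter. MCAM, a cell adhesion molecule reported to bind S100A8/A9, rose in both pairs. Its mean went from 0.149 to 3.64 FPKM in BxPC-3-GR (log2FC 2.01) and from 1.69 to 4.96 FPKM in CFPAC-1-GR (log2FC 1.13, adjusted p = 6.8e-04, limma). ALCAM, another adhesion molecule of that kind, rose in CFPAC-1-GR (log2FC 1.79, adjusted p = 2.2e-05, limma) and BSG, or EMMPRIN, a receptor of S100A9, fell there (log2FC -1.29, adjusted p = 9.0e-06). With the correction these were 0.72 and -0.31 and lost their calls, whereas MCAM kept its calls at 1.98 and 1.53. In CFPAC-1-GR MCAM was not called with median-of-ratios (0.90) or upper-quartile scaling (0.81). In all, 2 of 5 tested receptors were called in BxPC-3-GR and 3 of 4 in CFPAC-1-GR, or 1 of 4 there with the correction, beside 7.76%, 32.2% and 9.43% of all genes. In the BxPC-3 pair TLR4 and MCAM passed the filter through the line where each is high, which fixed their direction, so no p is given for them there.

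Of 17 binding partners, 16 were tested in each pair. In BxPC-3-GR 2 of 16 were called, beside 7.76% of all genes: PLAT, tissue plasminogen activator, whose protein docks to the S100A10 and annexin A2 complex, rose from 8.47 to 90.3 FPKM (log2FC 3.27, SE 0.0858, adjusted p = 3.2e-06, limma), and PLAUR, the urokinase receptor, fell (log2FC -1.28, adjusted p = 1.2e-04). In CFPAC-1-GR 4 of 16 were called, a share below the 32.2% of all genes. PLAU, urokinase, fell from 614 to 202 FPKM (log2FC -1.62, SE 0.156, adjusted p = 7.0e-05, limma). The S100P partner IQGAP1 (log2FC 1.58, adjusted p = 1.9e-05, limma), the S100A4 partner PPFIBP1, or liprin beta 1 (log2FC 1.52), and ANXA1 (log2FC 1.38, adjusted p = 6.3e-06) rose. PPFIBP1, at means of 0.907 FPKM in CFPAC-1 and 4.58 in CFPAC-1-GR, passed the filter through CFPAC-1-GR, so no p is given for it here. With the correction PLAU alone kept its call at -1.07, and IQGAP1, PPFIBP1 and ANXA1 came to 0.74, 0.58 and 0.42. ANXA2 had 65.7 to 129 FPKM over the 12 libraries and was not called in BxPC-3-GR (log2FC -0.31, adjusted p = 0.011) or CFPAC-1-GR (log2FC 0.21, adjusted p = 0.17, and -0.52 with the correction). The difference between the pairs was -3.75 for PLAT (adjusted p = 1.7e-07, limma) and -4.14 with the correction.

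Of 15 transcription factors connected to S100 genes, 14 were tested in the BxPC-3 pair and 12 in the CFPAC-1 pair. FOSL1, a subunit of AP-1, fell in both pairs, from 32.03, 32.6 and 27.5 to 9.63, 9.85 and 4.87 FPKM in BxPC-3-GR (log2FC -1.85, SE 0.246, adjusted p = 0.0011, limma) and from 71.0, 91.9 and 92.9 to 17.9, 20.4 and 21.0 FPKM in CFPAC-1-GR (log2FC -2.05, SE 0.124, adjusted p = 1.0e-05). With the correction the latter was -0.99, at the edge of the fold criterion. CEBPD, a C/EBP factor of the acute phase and myeloid differentiation, rose in BxPC-3-GR (log2FC 1.70, adjusted p = 4.2e-05, limma) and had a log2FC of -0.97 in CFPAC-1-GR (adjusted p = 6.4e-05). With the correction the latter was 0.23 (adjusted p = 0.071), so its sign turned. HIF1A, the hypoxia-inducible factor, rose in CFPAC-1-GR (log2FC 2.08, adjusted p = 7.3e-06, limma, and 0.99 with the correction), and JUNB, another AP-1 subunit, fell there (log2FC -1.18, adjusted p = 2.3e-05, and 0.04 with the correction). In total 2 of 14 factors were called in BxPC-3-GR and 3 of 12 in CFPAC-1-GR, beside 7.76% and 32.2% of all genes. With the correction 1 of 12 was called in CFPAC-1-GR, KLF4, a factor of epithelial differentiation named after its values were seen (log2FC 1.11, against values of 1.22 to 2.01 FPKM in CFPAC-1 and 2.82 to 2.94 FPKM in CFPAC-1-GR). SMAD4 was at most 0.01245 FPKM in all 12 libraries.

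**Figure D4:**
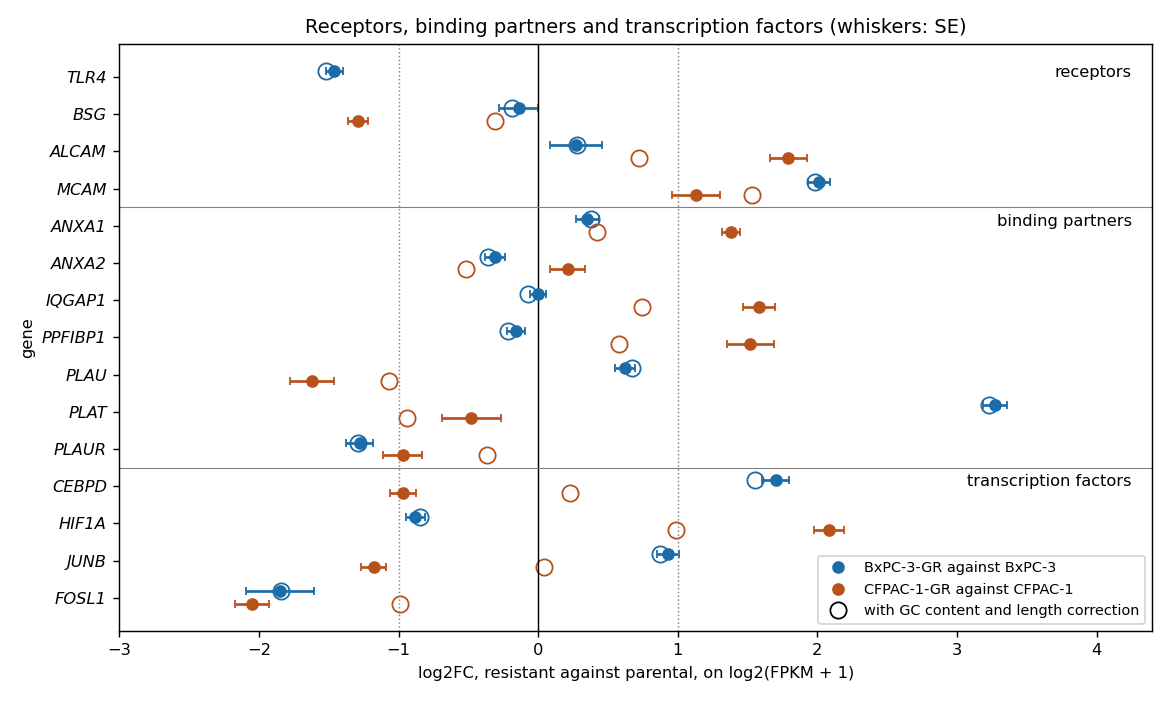
log2FC of resistant against parental cells on log2(FPKM + 1) (x axis) for named receptors, binding partners and transcription factors of the S100 proteins (y axis), in the BxPC-3 lines (blue) and the CFPAC-1 lines (orange), with SE as whiskers. Open circles give the value with the GC content and length correction: PLAT, MCAM and CEBPD lie above 1 in BxPC-3-GR, FOSL1 lies below -1 in both lines as deposited, and most orange circles lie nearer to 0 than their points.

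Between the outermost S100 genes of chromosome 1 (chr1:151982915-153632039, GRCh38) lie 71 other genes, of which 9 passed the filter in the BxPC-3 pair and 1 in the CFPAC-1 pair. In BxPC-3-GR 8 of 9 were called lower. SPRR2A, SPRR2B, SPRR2D, SPRR2E and SPRR2F, at means of 0.0250 to 0.292 FPKM in BxPC-3-GR, passed the filter through BxPC-3 alone, which fixed their direction, so nothing is read from this count. The 8, named after their values were seen, are all SPRR genes, which encode small proline-rich proteins of the cornified envelope and resemble each other enough for reads to be shared among them. SPRR1A fell from 41.7 to 7.94 FPKM (log2FC -2.27, adjusted p = 1.9e-05, limma). SPRR2A had means of 30.2 and 0.292 FPKM (log2FC -4.61), and no p is given for it because the filter fixed its direction. Of the chromosome 1 members tested in BxPC-3-GR, S100A4, S100A6 and S100A14 had log2FC values above 0 and the other 5 had values below 0. Whether this stretch changed as a whole was not tested. The gene tested in the CFPAC-1 pair was AL162258.1 (log2FC -1.04, adjusted p = 0.0070, limma), which with the correction had a log2FC of -0.11 and was not called.

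For each member the protein-coding gene outside the family with the most similar profile was sought among 10225 genes by Pearson's r on log2(FPKM + 1). The 12 libraries fall into 4 lines, so each r describes the likeness of 4 levels and carries no p. For S100A9 it was IFIH1, a sensor of viral RNA (r = 0.9965), for S100P VILL, a villin-like gene (r = 0.9960), for S100A4 WFDC2 (r = 0.9866), for S100A2 FXYD3 (r = 0.9951) and for S100A6 SUFU (r = 0.9977). The others were RPL13A for S100A10 (r = 0.9692), PHF5A for S100A11 (r = 0.9667), GABRA3 for S100A14 (r = 0.9870) and PTCD1 for S100A16 (r = 0.9839). The lowest value belonged to S100A8, with THSD1 (r = 0.9189), where low values leave the profile uncertain.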

How the data were processed

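RNA of 12 libraries was sequenced on an Illumina NovaSeq. The FPKM values of 58302 genes, deposited as 1 table, come from reads aligned to GRCh38 with Ensembl release 91. The submitters' processing notes name Trimmomatic 0.27, FastQC 0.10.1 and TopHat2 2.0.8, and hg19 beside GRCh38; the members lie at their GRCh38 positions in the table. The counting program is not given in the sources used here. The study used a test for counts; FPKM are not counts, so limma 3.58.1 in R 4.3.3 was used on log2(FPKM + 1), without a block, for genes averaging 1 FPKM or more over the compared libraries, with Benjamini-Hochberg adjustment over all of them. The difference between pairs was an interaction term over 12 libraries. GC content and length came from GENCODE 29, in which 58039 of the 58302 genes were found. The correction subtracted a spline with 5 degrees of freedom on both from each log ratio.

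The members and all lists (receptors, partners, factors, markers, other S100 genes) were chosen with earlier results of these data known. Named genes are the members, the other S100 genes, list genes called in either pair, ANXA1, ANXA2, AGER and TLR4, the most similar gene of each member, and genes overlapping a member; KLF4, CEBPA, NCL and ANXA11 were added after their values were seen; the genes between them on chromosome 1 were planned as counts only. Implied depth came from the steps of low values, of which 54.9% to 64.2% were whole multiples within 0.05, so it is approximate. Alternatives were a pseudocount of 0.1, no filter, the replicate block, the correction with and without the block, median-of-ratios and upper-quartile scaling, protein-coding genes only, all 12 libraries in 1 fit and each library left out. On simulated data with about 200 changed genes and no GC trend, 98.5% of changes were recovered for the interaction (11808 genes) and 100% for each of the 4 comparisons of lines, with 0 false calls. With a simulated GC trend the BxPC-3 pair gave 69.2% recovery and 1618 false calls, and 0 false calls with the correction. The simulated trend was set on the same GC content that the correction removes. This checks the procedure only and says nothing about the trend in the CFPAC-1 pair. Promoters came from RefSeq. Figures were drawn with matplotlib.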

Additional observations from a re-analysis of the deposited data

Results flagged for a closer look

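A difference of response between the pairs, as the interaction term CFPAC-1-GR against CFPAC-1 minus BxPC-3-GR against BxPC-3 on log2(FPKM + 1), passed the criteria in 5 of 9 members, 3 of 5 receptors, 7 of 17 binding partners and 3 of 14 transcription factors, beside 38.0% of 12210 genes. With the GC content and length correction the counts were 4, 0, 4 and 4, beside 19.6% of genes. Among the members it was 7.92 for S100A9, -3.28 for S100A4, -2.97 for S100P, -2.37 for S100A6 and -1.15 for S100A10. Since the members were chosen on these contrasts, these values are a description.

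Among receptors the difference was 1.90 for TLR4, 1.52 for ALCAM (adjusted p = 1.7e-04, limma) and -1.15 for BSG (adjusted p = 6.9e-05). TLR4 passed the filter through BxPC-3 alone (mean of 3.91 FPKM, against 0.781 or less in the other lines). No p is therefore given for it, and nothing is read from its place in the count of receptors. With the GC content and length correction the differences for TLR4, ALCAM and BSG were 0.78, 0.50 and -0.08, and none passed. Among binding partners it was -3.75 for PLAT (adjusted p = 1.7e-07, limma), -2.24 for PLAU (adjusted p = 8.2e-07), 1.68 for PPFIBP1 (adjusted p = 1.4e-05), 1.58 for IQGAP1 (adjusted p = 9.3e-07) and 1.03 for ANXA1 (adjusted p = 3.7e-06). NCL, or nucleolin (1.80, adjusted p = 3.3e-08), and ANXA11, the annexin partner of S100A6 (-1.36, adjusted p = 9.4e-08, limma), were named after their values were seen. With the correction NCL (1.57), ANXA11 (-1.18), PLAT (-4.14) and PLAU (-1.70) passed, and PPFIBP1 (0.85), IQGAP1 (0.86) and ANXA1 (0.10) did not. Among transcription factors it was 2.96 for HIF1A (adjusted p = 1.3e-08, limma), -2.68 for CEBPD (adjusted p = 2.9e-08) and -2.11 for JUNB (adjusted p = 5.1e-08). With the correction HIF1A (1.90) and CEBPD (-1.29) passed, as did KLF4 (1.58) and CEBPA (1.24), which had not passed without it, and JUNB (-0.79) did not. BSG missed the criterion without BxPC-3 replicate 3 (-0.98), and ANXA1 did so without BxPC-3 replicate 1 (0.99) or BxPC-3-GR replicate 1 (0.97). FOSL1, called lower in both pairs without the correction, differed by -0.20 (adjusted p = 0.55, limma). With the correction the difference for FOSL1 was 0.90 (adjusted p = 0.020), and its call in CFPAC-1-GR was lost.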

How the results depend on the processing

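With the GC content and length correction, alone or with the replicate block, the called members in CFPAC-1-GR against CFPAC-1 went from 6 to 1 (S100A9), and the called list genes from 10 of 34 to 3. The lists gave 16 calls with a pseudocount of 0.1 and 17 with upper-quartile scaling. Counts of called members stayed within 1.5 times in every other comparison and alternative. With 1 library left out they were 4 in the BxPC-3 pair, 5 to 6 in the CFPAC-1 pair, 6 to 7 between the parental lines, 4 to 5 between the resistant lines and 4 to 5 for the difference, and the lists gave 6 and 10 to 13. Called genes overall went from 485 higher and 424 lower to 777 and 652 with a pseudocount of 0.1 in the BxPC-3 pair, and with the correction from 3880 to 1134 in the CFPAC-1 pair, from 5274 to 3195 between the parental lines and from 4643 to 2386 for the difference. Scaling moved their split in the CFPAC-1 pair from 2473 higher and 1407 lower to 1715 and 2285 (median of ratios) or 1454 and 2652 (upper quartile), and the median log2FC from 0.13 to -0.13 or -0.24. For the difference the split went from 2885 and 1758 to 2003 and 2576 or 1865 and 2908, between the parental lines from 2924 and 2350 to 2593 and 2655 or 2280 and 3059, and between the resistant lines from 838 and 1273 to 1121 and 1011 or 1049 and 1088.

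Signs turned as follows, and the cause was not tested. JUNB, called lower in CFPAC-1-GR at -1.18, and CEBPD, at -0.97, were among them. With the correction, alone or with the block, in CFPAC-1-GR: S100A4 0.01, S100A11 0.20, ANXA2 -0.52, CEBPD 0.23, JUNB 0.04, S100A13 0.05 and S100A3 0.31. In BxPC-3-GR IQGAP1 was -0.07, and between the parental lines S100A16 was 0.14. In the difference S100A11 was 0.43, S100A14 0.17, S100A16 0.28, ANXA2 -0.12, FOSL1 0.90, S100A3 0.51 and CEBPA 1.24 (-0.05 without the correction, and -0.12 to 0.02 with 1 library left out). With median-of-ratios and upper-quartile scaling in CFPAC-1-GR, S100A14 was -0.10 and -0.23 and ANXA2 -0.10 and -0.22. With upper-quartile scaling S100A11 was -0.04 between the parental lines and PLAUR -0.09 in the difference. S100A2 in the difference was -0.15 with a pseudocount of 0.1, -0.29 and -0.38 with the scalings, and -0.14 to 0.20 with 1 library left out. IQGAP1 in BxPC-3-GR lay between -0.03 and 0.03 with 1 library left out, against 0.00. With median-of-ratios and upper-quartile scaling in turn, S100A4 was called in CFPAC-1-GR (-1.05 and -1.17), and MCAM was not (0.90 and 0.81). Of 1740 values of named genes under all alternatives 1588 kept their direction and their side of the criteria.

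Replicate numbers did not pair the libraries: deviations of same-numbered libraries correlated between -0.134 and 0.09, and in 5 of 12 matches between lines a library correlated best with its own number. With the replicate block 4, 6, 6, 5 and 5 members were called in the 5 comparisons, the counts given without it, and 6 and 10 list genes. Depth limits S100A8, at 11.1 implied fragments or fewer per library, and the other low S100 genes. Each pair rests on 3 libraries per line and 1 derivative line.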

Other observations

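AHNAK, the large scaffold protein that binds S100A10 with annexin A2, was at 109 and 98.0 FPKM in replicates 1 and 3 of CFPAC-1-GR and at 3.13 FPKM in replicate 2. In the other 9 libraries it lay between 30.7 and 206 FPKM. S100A10 itself was at 153 FPKM in replicate 1 and at 74.4 and 65.8 FPKM in replicates 2 and 3 of the same line.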
